A study of Mus musculus with 9 samples.

Results

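The values of 41 genes that skeletal muscle uses for contraction and for its fuel were followed through 9 arrays of mouse brain RNA. The 41 symbols were proposed with their signal in these arrays known, because skeletal muscle genes had stood out in 3 of the arrays. Each gene was taken from the probe set that carried its symbol alone, and from the one with the highest mean where there were several. All 41 had such a row, out of 19938 genes in the table. Because the measured values chose the genes, their levels are given below as a description, and the test results of the same contrasts are printed only as a record.

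The study set out to learn how a peptide, HPYD, alters the brain transcriptome of a mouse model of Alzheimer's disease, and 3 arrays were run for each of 3 groups. In the HPYD group, APP/PS1 transgenic mice received HPYD, a peptide designed to break β-sheets, in saline at 33 mg/mL and 5 μL per day through the nose for 30 days. In the model group, APP/PS1 transgenic mice received saline in the same way, and in the control group wild type mice did. Brain tissue of all 3 groups was taken at the end of a Morris water maze test, which followed the dosing. The strain background was C57/6J in all 3 groups. APP/PS1 mice were 8 months old when bought, and the methods describe the controls as matched for age. The sources used here name neither the APP/PS1 line and its promoters nor the brain region, and they do not say whether the RNA of several mice was pooled. Arrays are called H1 to H3, M1 to M3 and C1 to C3, after the HPYD, model and control groups and the number in the label. The signal is the deposited log2 value, which lay between 2.37 and 14.01, with array medians from 6.69 to 6.82.

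Checks of the labels preceded the comparison. Snap25, a synaptic gene of neurons, lay between 13.08 and 13.27 in the 9 arrays, as is usual for brain. App, which encodes the amyloid precursor protein, was 12.98, 13.01 and 12.53 in arrays H1, H2 and H3, between 12.95 and 13.02 in the model arrays and between 12.56 and 12.62 in the control arrays. Prnp was 12.54, 12.47 and 11.52 in these HPYD arrays, 12.55, 12.42 and 12.50 in the model arrays and 11.78, 11.81 and 11.76 in the control arrays. Xist, which is expressed in female cells, was 11.33, 11.47 and 5.22 in the HPYD arrays, 11.18, 11.78 and 11.60 in the model arrays and 5.22, 5.20 and 5.69 in the control arrays. The level of Xist thus differed between all model and all control arrays, the sample labels give no sex, and genotype and sex cannot be told apart between these groups. H3 lay near the control arrays in App and Xist and below them in Prnp, so it went against its label and is called the array labelled HPYD group 3. Arrays H3 and M2 also differed from the control mean by 1 or more on the log2 scale, that is at least 2-fold, in the most genes, with 266 higher and 312 lower in H3 and 507 higher and 384 lower in M2, whereas H1 had 34 and 11 and M3 had 26 and 15. Results that rest on these arrays are given with and without them.

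Skeletal muscle contracts when myosin of the thick filament pulls on actin of the thin filament. Troponin and tropomyosin on the thin filament gate this movement by calcium, which the sarcoplasmic reticulum releases and takes back, and the Z-disc anchors the thin filaments. Fast fibres and slow fibres use different genes for many of these parts. Healthy brain tissue uses few of them, although Actn2, Pygm and Cox6a2 are also used by neurons or other brain cells. The genes are described below by function, and then by fibre type.

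By their median, the 41 genes lay furthest above the control mean in 3 arrays, H2, M1 and M2. Their median log2 difference from the control mean was 0.54 in H2, 0.02 in H1 and 0.08 in H3, and it was 1.70 in M1, 3.35 in M2 and 0.06 in M3. The control arrays themselves lay between -0.04 and 0.03. In fold terms the medians were 1.45 in H2, 3.24 in M1 and 10.2 in M2. More muscle tissue in a sample and more muscle RNA per cell cannot be told apart in RNA of whole tissue.

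At least 2-fold above the control mean were 8 of the 41 genes in H2 (0.833% of all genes), 28 in M1 (1.19% of all genes) and 37 in M2 (2.54% of all genes). No gene of the 41 reached that difference in H1 or M3. In the array labelled HPYD group 3, Mybpc1 and Smpx were at least 2-fold higher and Actn2 was at least 2-fold lower. The order of the 3 arrays was nearly the same in each gene, as M2 was above M1 and M1 above H2 in 40 of 41. The exception was Sln. Of all 19938 genes, 3102 had that order. M2 also held the highest value of all 9 arrays in 40 of 41 genes, and in 2834 of all genes. The 41 were chosen on values of these arrays, so these counts are a description only.

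**Figure D1:**
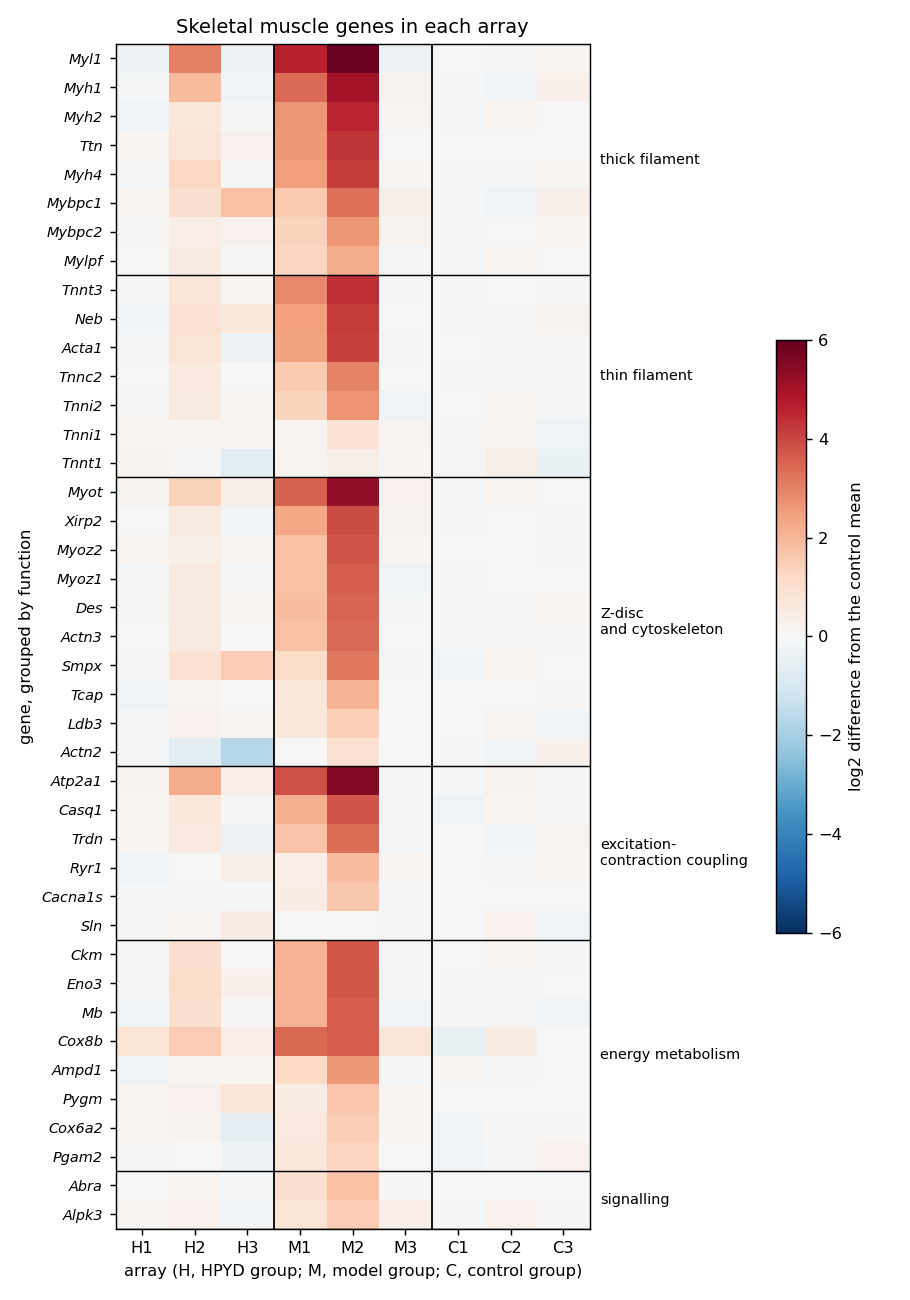
Log2 difference from the mean of the 3 control arrays (colour) for the 41 skeletal muscle genes (vertical axis, grouped by function) in each array (horizontal axis). The columns of H2, M1 and M2 are raised, with medians of 0.54, 1.70 and 3.35, and the column of M3 stays near that of the controls at 0.06.

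The promoters of 5 genes with large differences in M2 are shown with that of Tnnt1, which had almost none. RefSeq windows on GRCm38.p6, from 250 bases before the start of a transcript to 50 bases after it, were found for 29 of the 41 genes, in 33 windows, of which some of the same gene overlap. Capitals mark matches to TATAAA on either strand, to CAGCTG, which reads the same on both strands and is 1 form of CANNTG, and to the motif of MEF2 factors, which can overlap TATAAA. Each is printed 5′ to 3′ on the strand of its gene.
Myl1, chr1:66945007-66945306, minus strand: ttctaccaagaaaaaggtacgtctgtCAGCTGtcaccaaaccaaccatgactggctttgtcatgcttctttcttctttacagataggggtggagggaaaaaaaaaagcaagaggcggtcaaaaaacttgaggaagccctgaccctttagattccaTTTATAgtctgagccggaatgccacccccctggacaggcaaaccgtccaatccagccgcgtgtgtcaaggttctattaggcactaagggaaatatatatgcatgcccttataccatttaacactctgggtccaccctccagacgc
Myh1, chr11:67199852-67200151, plus strand: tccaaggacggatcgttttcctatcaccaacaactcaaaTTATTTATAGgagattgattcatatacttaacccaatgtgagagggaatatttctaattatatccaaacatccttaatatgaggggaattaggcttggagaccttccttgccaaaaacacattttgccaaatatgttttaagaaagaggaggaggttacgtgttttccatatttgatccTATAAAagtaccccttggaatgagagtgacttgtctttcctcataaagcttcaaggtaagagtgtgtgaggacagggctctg
Myh4, chr11:67237562-67237861, plus strand: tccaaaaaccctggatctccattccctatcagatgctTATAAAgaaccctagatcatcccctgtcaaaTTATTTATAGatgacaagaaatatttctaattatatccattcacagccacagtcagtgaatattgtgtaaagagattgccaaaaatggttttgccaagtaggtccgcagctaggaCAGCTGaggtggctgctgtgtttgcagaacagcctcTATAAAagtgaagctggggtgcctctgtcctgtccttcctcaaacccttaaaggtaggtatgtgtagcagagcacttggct
Acta1, chr8:123894726-123895025, minus strand: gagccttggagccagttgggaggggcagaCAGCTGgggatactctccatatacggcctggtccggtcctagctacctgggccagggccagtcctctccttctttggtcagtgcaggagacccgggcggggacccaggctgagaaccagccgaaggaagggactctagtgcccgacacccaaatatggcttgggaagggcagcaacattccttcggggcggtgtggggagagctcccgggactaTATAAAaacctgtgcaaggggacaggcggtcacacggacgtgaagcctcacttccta
Cox8b, chr7:140900397-140900696, minus strand: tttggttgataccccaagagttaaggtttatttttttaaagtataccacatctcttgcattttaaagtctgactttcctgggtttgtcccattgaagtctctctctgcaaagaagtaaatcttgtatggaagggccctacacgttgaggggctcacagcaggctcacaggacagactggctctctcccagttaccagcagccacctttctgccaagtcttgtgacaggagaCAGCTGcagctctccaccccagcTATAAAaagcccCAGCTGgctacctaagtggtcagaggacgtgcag
Tnnt1, chr7:4515926-4516225, minus strand: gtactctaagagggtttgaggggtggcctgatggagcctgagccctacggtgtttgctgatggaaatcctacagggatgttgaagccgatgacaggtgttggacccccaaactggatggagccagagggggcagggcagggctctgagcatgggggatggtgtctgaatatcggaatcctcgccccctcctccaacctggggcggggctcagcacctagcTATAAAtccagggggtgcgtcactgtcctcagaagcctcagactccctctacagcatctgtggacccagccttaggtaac

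CAGCTG, a form of the E-box that myogenic factors such as MyoD bind, was in 57.6% of the 33 windows and in 16.3% of all 32851 RefSeq windows of this length. It stands in the windows of Myl1, Myh4 and Acta1 and in 2 places in that of Cox8b, and it is not in those of Myh1 and Tnnt1. Genes with it and genes without it overlapped in their difference in M2. Both windows of Tnni1 held it at 1.85 times the control mean, and those of Myh2 and Ttn lacked it at 23.4 and 19.7 times. The other way, Myl1 and Atp2a1 held it at 61.2 and 46.0 times, and Tnnt1 and Actn2 lacked it at 1.27 and 1.89 times. Whether its presence goes with the difference was not tested. The MEF2 motif, searched on both strands, was in 21.2% of the windows and 3.19% of all windows, and Myh1 and Myh4 hold 1 each. TATAAA was in 24.2% and 13.6%. The CArG box of serum response factor was in 12.1% and 1.63%, CATTCC, the core of the motif of TEAD factors, in 27.3% and 14.7%, both searched on both strands, and any CANNTG in 81.8% and 72.3%. A match is a description of these letters only.

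The 8 thick filament genes had the largest medians of the functional groups, 0.87 in H2, 2.57 in M1 and 4.25 in M2. Myl1, an essential light chain of fast myosin, had the largest difference of the 41 genes in each of the 3 arrays. Its signal was 5.50, 8.81 and 5.51 in the HPYD arrays, 10.40, 11.74 and 5.46 in the model arrays and 5.77, 5.73 and 5.90 in the control arrays. The value in M2 was 61.2 times the control mean. H2, M1 and M2 stood clear of the other 6 arrays, which spanned less than 0.5 on the log2 scale, so the means, 6.60 ± 1.91 for HPYD, 9.20 ± 3.31 for model and 5.80 ± 0.09 for control arrays (SD, n = 3 each), describe no single array.

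Myh1, the heavy chain of fast type IIX fibres, was 5.0, 6.99 and 4.88 in the HPYD arrays, 8.49, 10.04 and 5.27 in the model arrays and 4.93, 4.92 and 5.36 in the control arrays. Myh2, the heavy chain of type IIA fibres, was 5.59, 6.50 and 5.86 in the HPYD arrays, 8.46, 10.36 and 5.99 in the model arrays and 5.68, 5.95 and 5.81 in the control arrays. Myh4, the heavy chain of the fastest, type IIB fibres, was 5.46, 6.81 and 5.49 in the HPYD arrays, 8.09, 9.75 and 5.70 in the model arrays and 5.50, 5.48 and 5.68 in the control arrays. All 3 fast heavy chains were thus raised in M1 and M2, whereas in H2 the difference was 1.92 for Myh1, 1.26 for Myh4 and 0.68 for Myh2.

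In the RefSeq gene table these heavy chain genes neighbour each other between Myh3 and Myh8, followed by Myh13. Myh3 and Myh8, the embryonic and perinatal heavy chains, and Myh13, that of extraocular muscle, were not raised with their neighbours. In M2 their differences from the control mean were 0.00, 0.03 and -0.16 in that order of the genes, and in M1 they were 0.07, 0.25 and 0.26.

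Ttn, the giant spring protein titin, differed by 0.79 in H2, 2.61 in M1 and 4.30 in M2. Mybpc2, the fast myosin binding protein, differed by 0.38, 1.40 and 2.64 and Mylpf, the fast regulatory light chain, by 0.48, 1.27 and 2.21 in the same arrays. Mybpc1, the slow myosin binding protein, had another pattern. It was 6.39, 7.24 and 8.05 in the HPYD arrays, 7.83, 9.58 and 6.65 in the model arrays and 6.20, 6.07 and 6.58 in the control arrays, so that the array labelled HPYD group 3 was above M1 in this gene.

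The 7 thin filament genes had medians of 0.58 in H2, 1.59 in M1 and 2.96 in M2. Acta1, the skeletal muscle actin, was 7.67, 8.64 and 7.50 in the HPYD arrays, 10.23, 11.93 and 7.86 in the model arrays and 7.80, 7.76 and 7.88 in the control arrays. Tnnt3, the fast troponin T, was 7.01, 7.89 and 7.29 in the HPYD arrays, 10.05, 11.59 and 7.04 in the model arrays and 7.08, 7.14 and 7.23 in the control arrays. Both were highest in M2 and next highest in M1. Tnnt3 and the fast troponin I gene Tnni2 neighbour each other, with Lsp1, a gene of leukocytes, and Prr33 between them. In H2, M1 and M2, Lsp1 differed by 0.83, 1.15 and 1.26 and Prr33 by 0.10, 0.17 and 0.36. Neb, the thin filament ruler nebulin, was 4.19 above the control mean in M2, and the fast troponins Tnnc2 and Tnni2 were 2.96 and 2.71 above it.

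The slow troponins did not share this. Tnnt1, the slow troponin T, was 6.49, 6.39 and 5.69 in the HPYD arrays, 6.46, 6.64 and 6.43 in the model arrays and 6.36, 6.63 and 5.90 in the control arrays. Tnni1, the slow troponin I, was 7.90 in M2 and between 7.11 and 7.17 in the other 5 arrays of the HPYD and model groups, against 7.09, 7.17 and 6.76 in the control arrays. The groups overlapped for both genes, and Tnnt1 in M2 was about level with the highest control array.

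**Figure D2:**
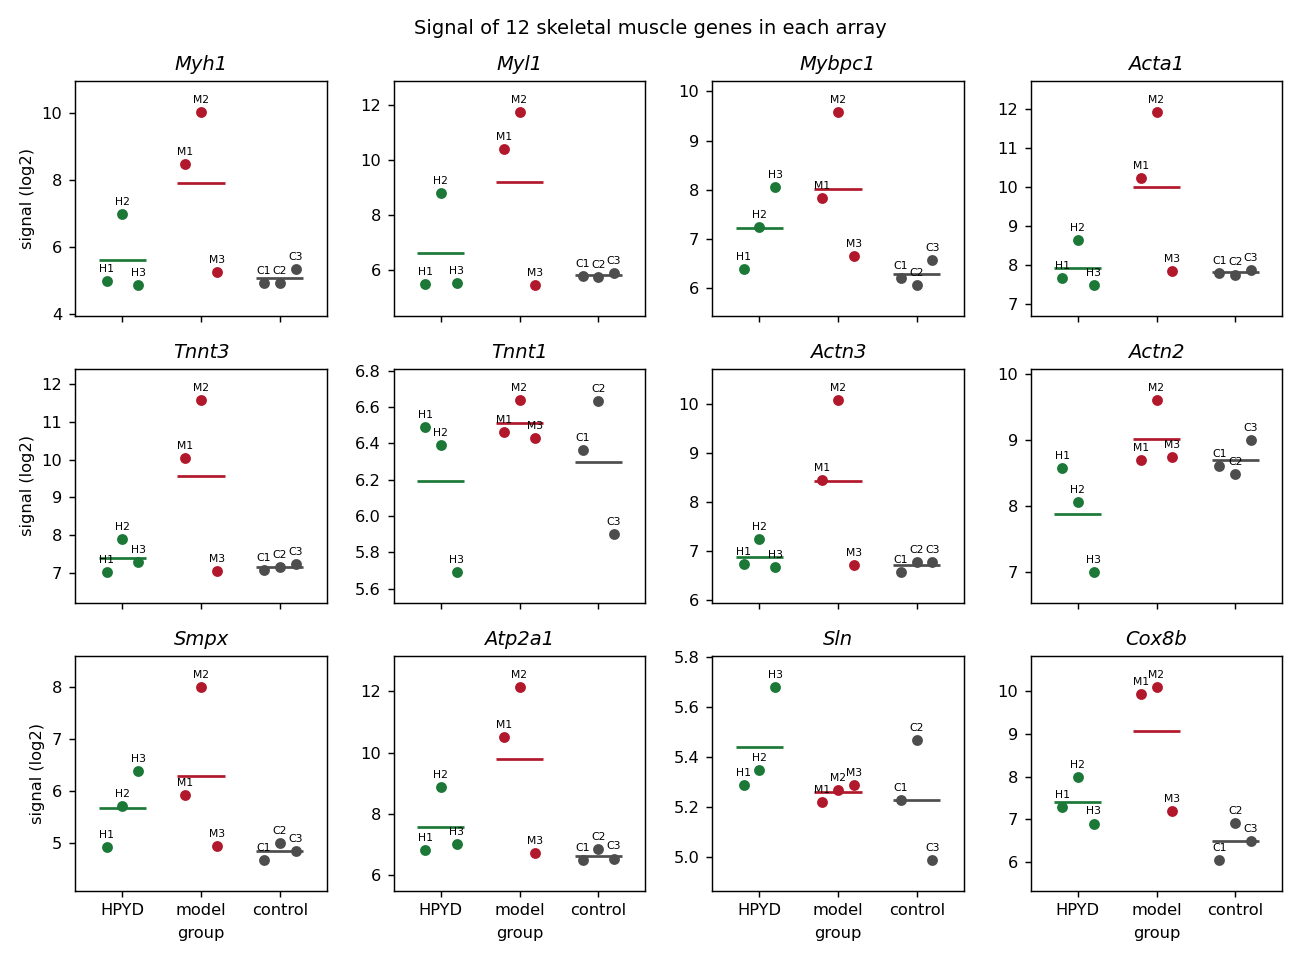
Signal (log2, vertical axis, scaled to each panel) of 12 of the genes in each array, with arrays as labelled points and group means as lines, in the order HPYD, model and control group. H2, M1 and M2 stand above the other arrays for Myl1 at 8.81, 10.40 and 11.74, whereas the groups overlap for Tnnt1 and Sln, and H3 is raised for Mybpc1 at 8.05 and Smpx at 6.37 and low for Actn2 at 7.0.

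Of the 10 genes of the Z-disc and cytoskeleton, 1 was at least 2-fold above the control mean in H2, 7 in M1 and 9 in M2, with medians of 0.49, 1.75 and 3.44. Myot, a Z-disc protein that binds actin, was 5.20, 6.37 and 5.36 in the HPYD arrays, 8.54, 10.27 and 5.25 in the model arrays and 4.91, 5.12 and 5.0 in the control arrays. Actn3, the fast α-actinin, was 6.73, 7.24 and 6.67 in the HPYD arrays, 8.45, 10.08 and 6.70 in the model arrays and 6.56, 6.77 and 6.76 in the control arrays. Xirp2, Myoz2, Myoz1 and Des, which encode a protein of the intercalated disc and Z-disc region, the slow and the fast calsarcin and desmin, lay between 3.49 and 3.90 above the control mean in M2. Tcap, which caps titin, and Ldb3, a scaffold of the Z-disc, lay 2.03 and 1.44 above it.

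Actn2, the other muscle α-actinin and also a protein of neuronal synapses, was 8.58, 8.06 and 7.0 in the HPYD arrays, 8.70, 9.61 and 8.74 in the model arrays and 8.60, 8.49 and 9.0 in the control arrays. It was raised in M2 alone, by 0.92, and H2 and the array labelled HPYD group 3 lay below every control array. Smpx, a small protein of the costamere region, was 4.91, 5.70 and 6.37 in the HPYD arrays, 5.92, 7.99 and 4.93 in the model arrays and 4.67, 5.0 and 4.83 in the control arrays. As with Mybpc1, the array labelled HPYD group 3 lay above M1 and H2.

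Excitation-contraction coupling links the electrical signal of the membrane to calcium release, and its 6 genes had medians of 0.35 in H2, 1.08 in M1 and 2.61 in M2. Atp2a1, the calcium pump SERCA1 of fast fibres, was 6.82, 8.86 and 7.0 in the HPYD arrays, 10.51, 12.14 and 6.71 in the model arrays and 6.49, 6.84 and 6.53 in the control arrays. Its signal in M2 was 46.0 times the control mean, next to that of Myl1. Casq1, the calcium store protein of fast fibres, differed by 0.64 in H2, 2.11 in M1 and 3.79 in M2, and Trdn, triadin, by 0.58, 1.70 and 3.35.

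Trdn was the only one of the 41 genes with several rows, and 0 of its 19 rows were at least 2-fold above the control mean in H2, 12 in M1 and 15 in M2. The calcium channels were nearer to the controls. Ryr1, the release channel, differed by 0.01 in H2, 0.39 in M1 and 1.87 in M2, and Cacna1s, the voltage sensor, by 0.05, 0.46 and 1.61. Sln, sarcolipin, an inhibitor of the calcium pump, was 5.29, 5.35 and 5.68 in the HPYD arrays, 5.22, 5.27 and 5.29 in the model arrays and 5.23, 5.47 and 4.99 in the control arrays. It was the only one of the 41 genes in which M2 was not above all control arrays.

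Of the 8 genes of energy metabolism, 3 were at least 2-fold above the control mean in H2, 5 in M1 and 8 in M2, with medians of 0.62, 1.64 and 3.12. Ckm, the muscle creatine kinase, was 6.76, 7.90 and 6.88 in the HPYD arrays, 8.94, 10.59 and 6.74 in the model arrays and 6.84, 6.98 and 6.79 in the control arrays. Mb, the oxygen store myoglobin, was 6.76, 7.87 and 6.97 in the HPYD arrays, 8.98, 10.54 and 6.75 in the model arrays and 6.98, 6.98 and 6.76 in the control arrays. Eno3, the muscle enolase, was 7.09, 8.12 and 7.32 in the HPYD arrays, 9.12, 10.75 and 7.11 in the model arrays and 6.96, 7.11 and 7.01 in the control arrays. In these 3 genes the differences from the control mean were nearly equal, at 0.96 to 1.09 in H2, 2.07 to 2.09 in M1 and 3.63 to 3.72 in M2.

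Ampd1, the muscle AMP deaminase, was 2.62 above the control mean in M2, Pygm, the muscle glycogen phosphorylase, 1.65, Cox6a2, a cytochrome oxidase subunit of striated muscle, 1.49, and Pgam2, the muscle phosphoglycerate mutase, 1.27. Cox8b, a cytochrome oxidase subunit of striated muscle and brown fat, was the exception. It was 7.29, 8.0 and 6.90 in the HPYD arrays, 9.93, 10.10 and 7.19 in the model arrays and 6.05, 6.91 and 6.49 in the control arrays. M1 nearly reached M2 in this gene, and H1 and M3 also lay above all control arrays. The genes of signalling, Abra, an actin-binding protein of striated muscle, and Alpk3, a kinase of striated muscle, differed by 0.13 and 0.27 in H2, 0.94 and 0.83 in M1 and 1.74 and 1.52 in M2.

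By fibre type, the 13 fast fibre genes stood higher than the 4 slow fibre genes in the 3 arrays. The fast median was 0.64 above the control mean in H2, 2.11 in M1 and 3.79 in M2. The slow median was 0.23 in H2, 0.85 in M1 and 2.10 in M2, and that of the 24 genes assigned to neither class was 0.37, 1.15 and 2.88 in these arrays. All 13 fast genes were at least 2-fold higher in M1 and in M2. Of the slow genes, Mybpc1 and Myoz2 were, and Tnnt1 and Tnni1 were not, in either array. The difference between the classes was not tested, since the values chose the genes and 4 slow genes are few. The genes of the classes differ in probes, so a larger difference in one of them is not a larger amount of RNA.

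**Figure D3:**
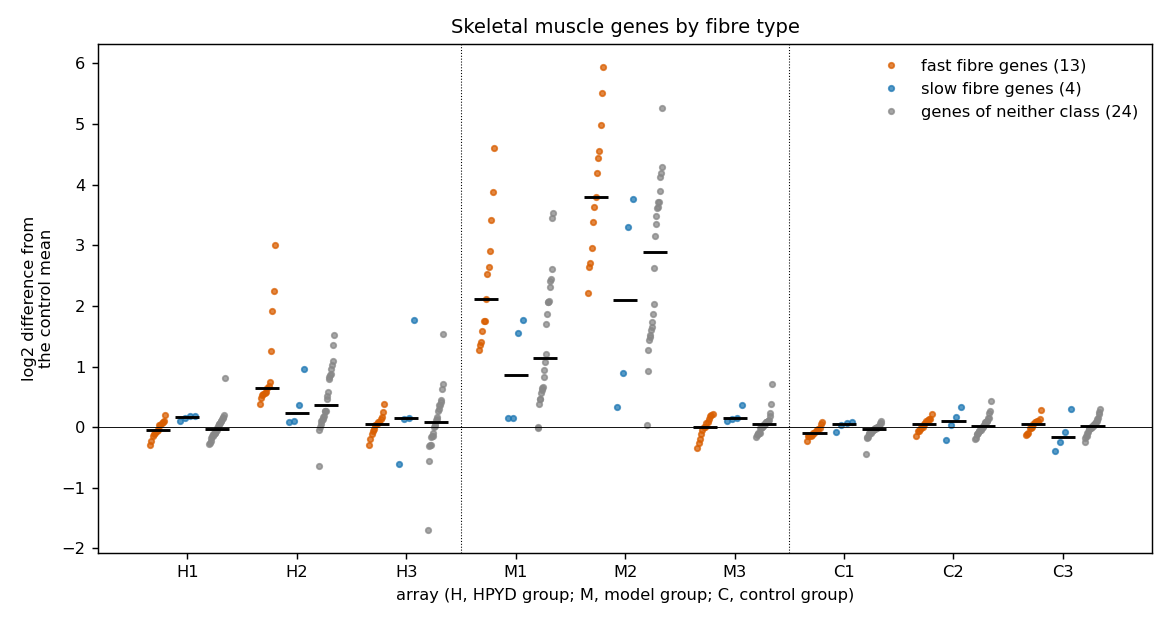
Difference from the control mean (log2, vertical axis) of the 41 genes in each array (horizontal axis), with one point per gene, coloured by fibre type, and bars at the medians. In M2 the medians are 3.79 for fast genes, 2.10 for slow genes and 2.88 for the others, and in H1, H3, M3 and the control arrays the medians lie near 0.

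To compare the 3 arrays gene by gene, the log2 values were turned into linear signal, and the excess over the control mean was taken for the 28 genes at least 2-fold higher in M1, a limit set after the values were seen. The arrays share the control mean in this calculation. The limit on M1, the divisor, also leaves out genes with a small excess there, so the ratios describe the genes kept. In those, the excess in M2 was a median of 3.69 times that in M1, with quartiles of 3.34 and 3.93, the lowest in Cox8b at 1.13 and the highest in Smpx at 7.04. Over the 40 genes above the control mean in M1, without that limit, the median was 3.72 and the quartiles 3.20 and 4.33, and Ryr1 at 8.61, Tnni1 at 7.22, Pygm at 5.69 and Cacna1s at 5.41 were among those left out. Actn2, whose excess in M1 was near 0, has no useful ratio. Fast genes had a median of 3.36 (n = 13) and the slow genes Mybpc1 and Myoz2 had 4.61 and 5.22.

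The excess in H2 was a median of 18.9% of that in M1 in the 28 genes, with quartiles of 14.8 and 29.1%, and ranged from 5.34% for Ampd1 to 73.3% for Smpx. Over the 40 genes its quartiles were 13.7 and 29.7%. Myl1 and Atp2a1, with the largest excess in H2, were at 30.2% and 26.9%, and Acta1 and Cox8b, which came next, at 17.7% and 18.7%. Tnnt3 was at 10.4%, and of the myosin heavy chains Myh1 was at 28.8% and Myh2 at 11.5%. Among the neighbouring heavy chains, Myh4 was at 29.0%, like Myh1, and the ratios of M2 to M1 were 3.14 for Myh1, 4.24 for Myh2 and 3.63 for Myh4.

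**Figure D4:**
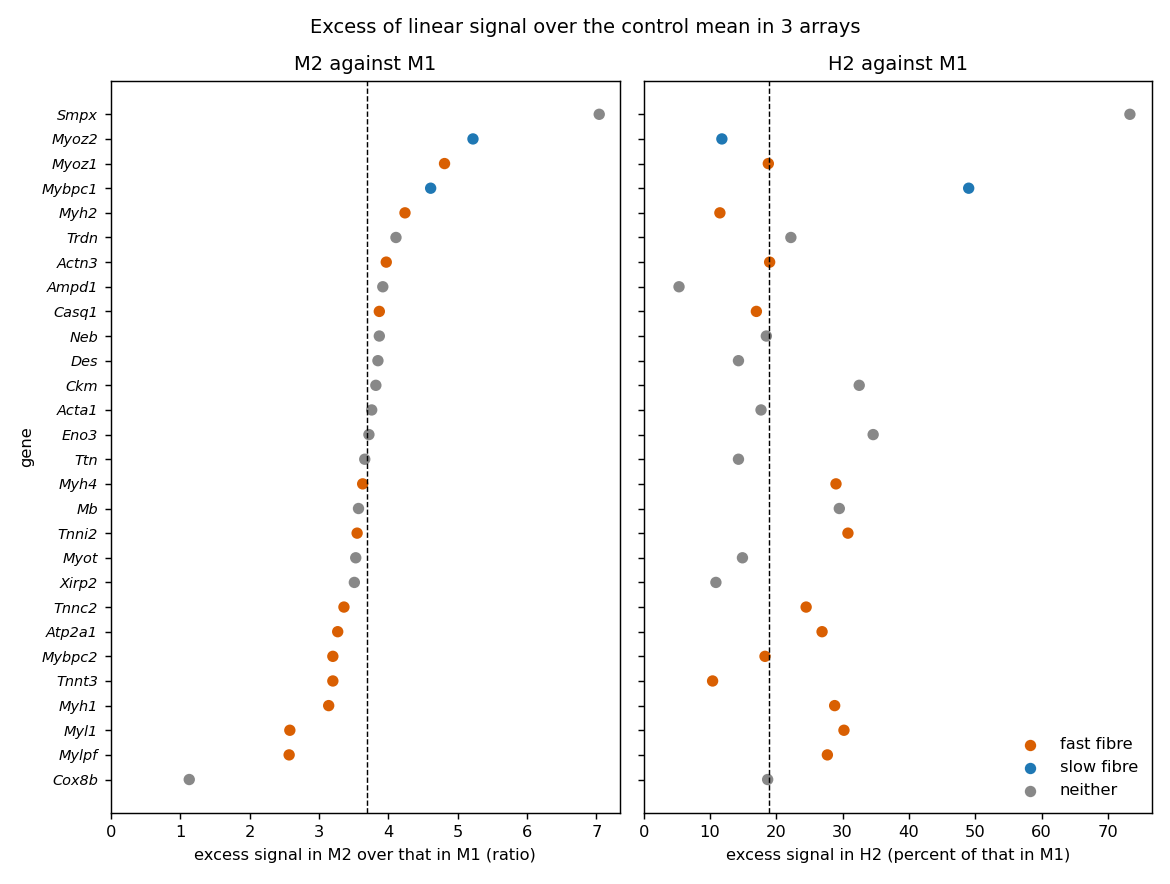
Excess of linear signal over the control mean in M2 as a ratio to that in M1 (left, horizontal axis) and in H2 as a percent of that in M1 (right, horizontal axis) for the 28 genes at least 2-fold higher in M1 (vertical axis), coloured by fibre type. Dashed lines are the medians, 3.69 and 18.9%, and among the genes shown Cox8b at 1.13 is lowest and Smpx at 7.04 highest on the left.

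The group comparisons were run with limma over all 19938 genes, with the Benjamini-Hochberg adjustment, and called a gene at an adjusted p under 0.05. No source states that each array came from its own mouse. The p-values thus measure the spread among these arrays, and that spread may be technical. For model against control, the 41 genes had a median log2 difference of 1.71, against -0.01 over all genes, and the mean was higher in the model group in 41 of 41. For Sln this difference was 0.03, and it was 0.00 with the arrays shifted to 1 median and -0.09 without C3. None of the 41 passed, as of all genes (0.0%), and limma's adjusted p lay between 0.859 and 0.982. At an unadjusted p under 0.05, 22 of the 41 were higher in the model group (2.87% of all genes), among them 7 of 8 thick filament, 4 of 7 thin filament, 5 of 10 Z-disc, 2 of 6 coupling, 2 of 8 metabolic and both signalling genes. Cox8b had the smallest limma p of the 41, at 0.00693, with a log2 difference of 2.59 (standard error 0.72) and an adjusted p of 0.859. Every model array, M3 included, lay above every control array in 13 of the 41 genes (4.83% of all genes), among them Cox8b, Myh2, Myot and Alpk3.

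For HPYD against model, the median difference was -1.48, against 0.02 over all genes, and the mean was lower in the HPYD group in 40 of 41, with Sln as the exception at 0.18. None passed (0.0% of all genes), as limma's adjusted p was 1 throughout, and 10 of the 41 were lower at an unadjusted p under 0.05 (0.752% of all genes). For HPYD against control, the median was 0.20, against 0.01 over all genes. None passed (0.0% of all genes), with adjusted p between 0.86 and 0.997 from limma, and 0 of the 41 were higher at an unadjusted p under 0.05 (2.0% of all genes). The 3 comparisons share arrays, so they are not independent of each other.

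Single arrays set these values. Without M2 the median for model against control was 0.80 and that for HPYD against model was -0.64. Without M3, the model array in which none of the 41 genes was at least 2-fold above the control mean, they were 2.53 and -2.39. Without H2 the median for HPYD against control was 0.00. Without M1, M2 and H2, which leaves M3 as the only model array, with its spread taken as that of the other groups, the medians were 0.06 for the model group against controls, 0.03 for HPYD against model mice and 0.00 for HPYD mice against controls. Without the array labelled HPYD group 3 these 3 medians were 1.71, -1.33 and 0.27.

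The count of 22 genes at an unadjusted p under 0.05 became 4 without M1 and without M2 and 38 without M3. It became 2, 3 and 3 without C1, C2 and C3, and 16, 15 and 17 without H1, H2 and H3. Over all genes the count of 572 became 441 without M1, 270 without M2 and 1125 without M3. It became 247, 454 and 371 without C1, C2 and C3, and 532, 569 and 608 without H1, H2 and H3. The count of 10 for HPYD against model became 3 without H1, 11 without H2 and 0 without the array labelled HPYD group 3. It became 2 without M1, 1 without M2, 36 without M3 and 5 without each control array. Over all genes the 150 lower became 419, 265 and 127 without H1, H2 and H3. They became 116, 164 and 665 without M1, M2 and M3, and 105, 108 and 122 without C1, C2 and C3. None of the 41 passed limma's adjusted p in any of these fits, where the lowest was 0.0757 for model against control without M3.

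A further 78 genes of muscle that are not among the 41 were followed, of which 75 were measured. For model against control 0 passed limma's adjusted p, 13 were higher and 1 lower at an unadjusted p under 0.05, and the median was 0.26. Of all 19938 genes, 0 passed, and 572 were higher and 408 lower at that p. For HPYD against model 0 passed, 0 were higher and 4 lower, with a median of -0.16, against 243 higher and 150 lower of all genes. For HPYD against control 0 passed, 1 was higher and 1 lower, with a median of 0.06, against 399 higher and 247 lower of all genes. The 75 genes had medians of 0.13 above the control mean in H2, 0.25 in M1 and 0.54 in M2, and 0 of them were at least 2-fold higher in H2, 9 in M1 and 28 in M2. In H3 the median was 0.08, with 1 gene at least 2-fold higher, so H2 was close to H3 in these genes. Over all genes the shares at least 2-fold higher were 0.833% in H2, 1.19% in M1 and 2.54% in M2.

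Other sarcomere genes had the largest differences of these lists, with a median of 1.76 in M2 for 21 genes. Tmod4, the tropomodulin of skeletal muscle, was 5.29, 6.20 and 5.02 in the HPYD arrays, 7.09, 8.91 and 5.26 in the model arrays and 5.19, 5.43 and 5.21 in the control arrays. Ankrd23, an ankyrin repeat protein that binds titin, Klhl41, a stabiliser of nebulin, and Lmod2, a leiomodin at the ends of thin filaments, were 3.28, 2.93 and 3.19 above the control mean in M2. Among other genes of muscle metabolism, Ckmt2, the mitochondrial creatine kinase of striated muscle, and Ppp1r3a, the glycogen-targeting subunit of protein phosphatase 1, were 3.04 and 2.49 above it, and Cox7a1 and Slc2a4, the insulin-responsive glucose transporter, 1.91 and 1.45. The muscle metabolism list had a median of 1.43 in M2, below that of the 8 metabolic genes among the 41.

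Slow and cardiac paralogs had a median of 0.81 in M2 and 0.33 in M1. Myl2, the slow and ventricular regulatory light chain, was 2.18 above the control mean in M2, Csrp3, a muscle LIM protein, 1.55, and Myh7, the slow heavy chain, 1.04. Actc1, the cardiac actin, was 0.81 above in H2, 0.92 in M1 and 0.64 in M2. Casq2, the cardiac calsequestrin, was 6.41, 6.32 and 8.08 in the HPYD arrays, 6.45, 8.24 and 6.49 in the model arrays and 6.39, 6.53 and 6.54 in the control arrays. It was high in M2 and in the array labelled HPYD group 3 but not in M1 or H2, and is named after its values were seen. Calcium handling genes had a median of 0.54 in M2, with the reticulum protein Srl at 1.85, and the membrane complex had 0.71, with α-sarcoglycan, Sgca, at 1.65. Ubiquitin ligases and proteases of muscle had 0.47, with Asb2, a ligase subunit that targets filamins, at 1.05 and Trim63, the ligase MuRF1, at 0.72.

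Genes of the nerve endplate and of muscle formation had small medians. The 8 genes of the neuromuscular junction, had medians of 0.19 in H2, 0.04 in M1 and 0.03 in M2, with Colq, the collagen tail of acetylcholinesterase, at 0.45 and Chrna1, an acetylcholine receptor subunit, at 0.38 in M2. Of 7 regulators of muscle formation, Myf6, the regulator found in mature fibres, was 0.25, 0.78 and 1.67 above the control mean in H2, M1 and M2. Pax7, a gene of muscle stem cells, was at -0.01 and Mstn, myostatin, at 0.10 in M2, and the list had a median of -0.03 there.

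The values of 1826 genes, among them 39 of the 41, spanned at least 1 on the log2 scale over the 9 arrays. Of these, 100 had a Pearson r above 0.95 with the median profile of the 41 genes, and 28 of the 100 were among the 41. The 41 were chosen on these values and made the profile, so the likeness of these 28 to it was built in. This r is a measure of likeness over 9 arrays and rests on the 3 raised ones. Of the 20 other genes with the highest r, 11 belong to the lists of muscle genes above, led by Ankrd23 at 0.996, Nrap at 0.993, Rpl3l at 0.991, Myom2 at 0.991 and Tmod4 at 0.99. The others were Tpm2, a tropomyosin of muscle, at 0.995, Asb5, Apobec2, Hspb6, Asb12, Fhl3, Lrrc39, Dlgap5 and Lyz1, between 0.98 and 0.994. Tpm2 was 7.06, 7.64 and 7.32 in the HPYD arrays, 8.78, 10.49 and 7.05 in the model arrays and 7.32, 7.15 and 7.20 in the control arrays.

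Genes that mark some other cell types were raised in the same 3 arrays. All 12 genes of granulocytes and their precursors were at least 2-fold above the control mean in H2, M1 and M2, with medians of 2.74, 3.34 and 3.63. The mean signal of the list ranged from 5.83 to 9.06 over the HPYD arrays, from 5.78 to 10.04 over the model arrays and from 6.46 to 6.76 over the control arrays. Mpo, myeloperoxidase, was 5.79, 9.34 and 6.33 in the HPYD arrays, 9.92, 10.28 and 5.90 in the model arrays and 6.09, 6.32 and 6.38 in the control arrays. H2 was thus closer to M1 and M2 in these genes than in the muscle genes, where its median was 0.54 against 1.70 and 3.35.

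The 6 of 9 erythroid genes measured had medians of 1.24 in H2, 1.03 in M1 and 2.05 in M2, and a mean signal of 5.73 to 7.04 in the HPYD arrays, 5.55 to 8.01 in the model arrays and 5.80 to 5.90 in the control arrays. For the 7 of 8 adipocyte genes measured, the medians were 0.43, 1.77 and 0.99 in H2, M1 and M2, with a mean signal of 5.42 to 6.02 in the HPYD arrays, 5.48 to 7.43 in the model arrays and 5.44 to 5.55 in the control arrays. The median in M1 exceeded that in M2 here, unlike in the muscle genes. Retn went the other way, at 0.26 in M1 and 0.99 in M2, and Lep stayed near the control mean at 0.15 and -0.08. The largest difference of the list in M1, 4.07, was that of Ucp1, the uncoupling protein of brown fat. Ucp1 was 4.78, 6.00 and 5.17 in the HPYD arrays, 9.17, 6.12 and 5.21 in the model arrays and 5.18, 5.14 and 5.0 in the control arrays.

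The 9 of 11 bone and cartilage genes measured had medians of 0.32, 0.69 and 0.38 in H2, M1 and M2, with a mean signal of 6.51 to 6.98 in the HPYD arrays, 6.47 to 7.69 in the model arrays and 6.44 to 6.58 in the control arrays. Ibsp, a bone matrix protein, was 5.28, 7.54 and 5.40 in the HPYD arrays, 9.10, 7.47 and 5.16 in the model arrays and 5.16, 5.23 and 5.50 in the control arrays. It had the largest difference of this list in each of H2, M1 and M2, at 2.25, 3.80 and 2.18. Other genes of the list were far lower, as Sp7 differed by 0.18, 0.62 and 0.07 and Col10a1 by -0.08, 0.83 and -0.38. The part of these cell types in the muscle genes' differences was not tested. No heart marker of 6 was 2-fold higher in any of these arrays, and their median was 0.08 in H2, -0.02 in M1 and -0.10 in M2. Myh6, the heavy chain of the atria, lay between 5.44 and 5.65 in all 9 arrays, and Tnnt2, the cardiac troponin T, differed by 0.23 in H2, -0.47 in H3, -0.04 in M1 and -0.75 in M2. The list medians in M2 were -0.15 for smooth muscle, -0.22 for skin, -0.04 for brain cells and -0.39 for the 3 of 5 peripheral nerve genes measured. Within the brain list the genes went both ways. Gfap, a gene of astrocytes, differed from the control mean by 0.98, 1.38 and 0.16 in H1, H2 and H3 and by 1.16, 0.57 and 0.95 in M1, M2 and M3. Its rise was thus not limited to H2, M1 and M2. It was the only one of the 14 at least 2-fold higher in H2, M1 or M2. Slc17a7 and Syt1, genes of excitatory and of all neurons, differed by -0.65 and -0.55 in the array labelled HPYD group 3 and by -1.01 and -0.57 in M2. Aqp4 and Mog, genes of astrocytes and oligodendrocytes, differed by 0.65 and 0.57 in the array labelled HPYD group 3 and by 0.89 and 0.75 in M2. Mog also differed by 0.47 in H1, 0.58 in M3 and 0.41 in C2. Slc1a2, another gene of astrocytes, went the other way, at -0.43 in H3 and -0.38 in M2. Mbp, another gene of oligodendrocytes, was at 0.12 and 0.26 in these arrays. These brain genes are named after their values were seen.

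**Figure D5:**
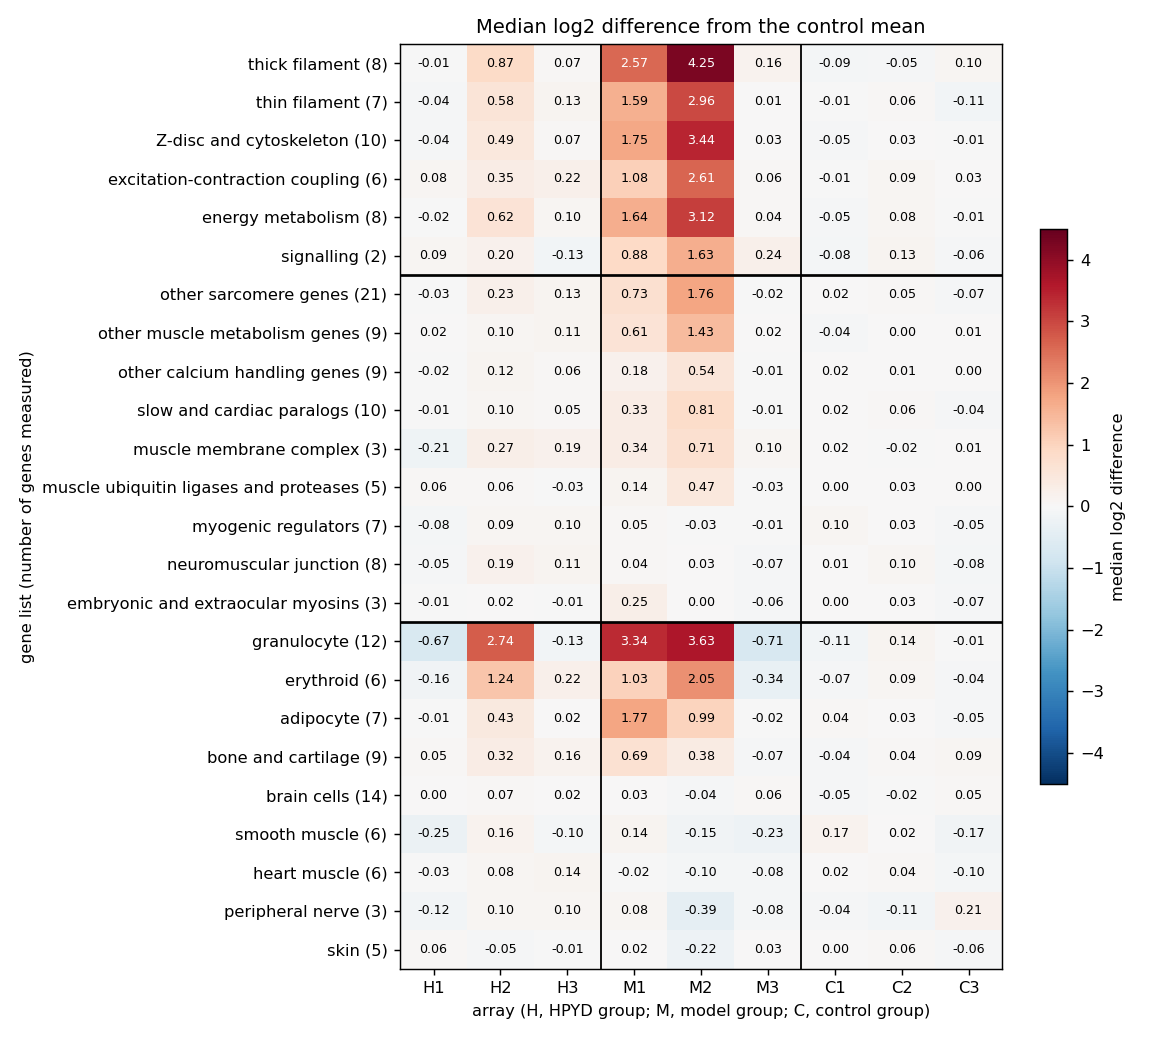
Median log2 difference from the control mean (colour and printed values) over the genes of each list (vertical axis) in each array (horizontal axis), for the 41 genes by function (top), other muscle genes (middle) and markers of other cell types (bottom). H2, M1 and M2 are raised for most groups of the 41 genes and for granulocyte, erythroid and adipocyte genes. For signalling, H2 at 0.20 lies below M3 at 0.24. The medians of heart, smooth muscle and skin genes are nearer to 0.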

How the data were processed

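Mouse brain RNA was hybridised to 9 Mouse Gene 1.0 ST GeneChips, in 3 groups of 3 taken from the sample labels. The deposited table of the authors holds log2 values of 35556 probe sets per array. The submitters' processing notes name MAS5, with no version, and no source used here gives the background correction or the normalization. The values were used as they are. Without detection calls, a low signal may be background, and a log2 difference from it understates the change. The number of arrays limits the precision.

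Probe sets with 1 symbol (21789), several (1621) or none in the platform's gene table (12146) were told apart, and 1 row was kept for each of 19938 genes, that with the highest mean. The 41 genes and all lists were chosen with earlier results of these data known. Groups were compared in R 4.3.3 with limma 3.58.1, in 1 fit over all 9 arrays without covariates, with 6 residual and 2.13 prior degrees of freedom. The fit was also run on simulated data, with equal shifts planted in all model arrays. Differences carried by single arrays, as in the 41 genes, were not simulated. Each array was also set against the mean of the control arrays. Named were all 41 genes, checks of the labels and the 20 genes most like the 41. From each other list up to 4 genes were named by their mean difference over M1, M2 and H2, and up to 4 of each cell type. More genes of the brain list, and Casq2, were named after their values were seen. Promoters came from RefSeq, GRCm38.p6. Alternatives were other scalings, dim genes left out, other tests and variance models, the replicate number as a block, the mean over rows of a gene, and arrays left out.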

Additional observations from a re-analysis of the deposited data

How the results depend on the processing

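No gene among the 41 or the 75 other muscle genes passed the adjusted p of limma under any alternative run, and none passed after adjustment by the Student-Newman-Keuls procedure following an analysis of variance, as the study's statistics name it. Over all genes, 5 passed for model against control with only the 6 arrays compared. Without single arrays 0 to 7 genes passed in the comparison of model and control arrays, 0 in that of HPYD and model arrays, and 0 to 8 in that of HPYD and control arrays, the 7 and 8 without the array labelled HPYD group 3. The median difference of the 41 genes ranged over the fits that leave out 1 array between 0.80 and 2.53 for model against control, from -2.39 to -0.64 for HPYD against model and from 0.00 to 0.29 for HPYD against control. Leaving out M1, M2 and H2 gave 0.06 for model against control and turned the median for HPYD against model to 0.03. With array weights the medians were 1.11, -0.83 and 0.31 for model and control, HPYD and model, and HPYD and control arrays in this order. The counts at an unadjusted p under 0.05, 22 (model against control) and 10 lower (HPYD against model), became 14 and 6 of the 28 genes left after a filter on dim genes, 3 and 3 with only the arrays compared, and 1 and 0 by the analysis of variance, and the second became 1 with array weights. Over all genes, 572 and 150 became 388 and 74 of 13292 after that filter and 570 and 79 with only the arrays compared. They became 153 and 46 by the analysis of variance, and the second became 98 with array weights. Same-numbered arrays of different groups did not deviate together (correlations from -0.32 to 0.18). Large differences in single arrays weigh on these correlations, so they cannot settle whether the numbers pair the arrays. With the replicate number as a block the counts were 29 and 18, against 604 and 174 over all genes, and 0 genes passed after adjustment. Other scalings and the mean over the rows of a gene left these medians within their spread between arrays.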
